A study of Mus musculus with 16 samples.

Results

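The genes described here are 10 members of the hepatocyte and epidermal growth factor axis, taken by name from the count table: Hgf, Hgfac and Met of the HGF arm, and Tgfa, Btc, Hbegf, Areg, Egf, Egfr and Errfi1 of the EGF arm. They are 10 of the 55421 genes in the table, and all 10 were among the 23018 genes with enough counts to be tested. RNA-seq of poly-A RNA was performed on bulk liver of male C57BL/6 mice at 2 time points, before and after regeneration, in control and in HIRA KO mice, with 4 libraries in each of the 4 groups. HIRA, the protein removed here, deposits histone H3.3 independently of DNA replication. Every mouse of every group received an AAV8 virus at 6 months of age, and its cargo was expressed from the Tbg promoter of hepatocytes, so Hira was targeted in these cells and not in the other cells of the liver. HIRA KO mice were either HIRA fl/fl mice given AAV8-Tbg-Cre or wildtype mice given AAV8-Tbg-saCas9 with U6-sgRNA-HIRA. Control mice were wildtype and were given AAV8-Tbg-Cre or AAV8-Tbg-saCas9 with U6-sgRNA-Rosa26. Each group held 2 libraries of each approach, but the columns of the table do not say which library had which approach. Partial hepatectomy was done 4 weeks after the virus. The resected left lateral and median lobes are the samples before regeneration, and the liver that remained was collected 5 days later as the samples after regeneration. The lobe and the way of collection therefore changed together with time and cannot be told apart from it.

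HGF is secreted by stellate and other non-parenchymal cells as an inactive precursor, is cleaved by serine proteases such as the HGF activator encoded by Hgfac, and then binds the receptor tyrosine kinase MET on hepatocytes. The ligands of EGFR are made as membrane-bound precursors and are released by ADAM proteases, and EGFR, like MET, signals through the RAS and ERK kinases. Signals from MET and EGFR are known as the main complete mitogens for hepatocytes after partial hepatectomy, and ERRFI1 (MIG6) is a feedback inhibitor that binds EGFR and blocks its kinase.

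Total counts were 15103059 to 21738619 per library, and TMM scaling factors were 0.915 to 1.10. Hira itself, the targeted gene, was at 5.77 ± 0.448 CPM (counts scaled by TMM library size; SD, n = 4) in control before regeneration, where HIRA KO held 3.54 ± 0.571. After regeneration the levels were 5.67 ± 0.554 and 3.51 ± 0.707, and the genotypes did not overlap at either time. The hepatocyte markers Alb, Ttr, Apoa1, Cyp2e1, Cps1 and Hnf4a were all present, with 101173 to 157336 CPM in sum. On the second principal component, which held 26.5% of the variance over 13176 genes, 4 of the 8 HIRA KO libraries (columns 1 and 2 at each time point) lay at -47.4 to -36.2 and the other 12 libraries at -1.14 to 31.2. Results that rest on these 4 libraries are given with and without them. The 4 libraries of a group were from separate mice. The tissues before and after regeneration were taken from the same mice by the surgical protocol, but no label links a library before to one after, and the test took them as independent.

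The 3 members that passed the test in any comparison were Tgfa, Btc and Errfi1. Their promoters are shown because these are the genes whose RNA changed: the 250 bases before the RefSeq start site on GRCm38.p6 (mm10), 5′ to 3′ on the gene's strand, with matches in capitals. The motifs were searched on both strands. The GC box was GGGCGG, the element that binds CREB (the cAMP response element) was TGACGTCA, the TATA box was spelled TATAAA, and the CCAAT box was searched by the letters of its name.
Tgfa, chr6:86194972-86195221, plus strand: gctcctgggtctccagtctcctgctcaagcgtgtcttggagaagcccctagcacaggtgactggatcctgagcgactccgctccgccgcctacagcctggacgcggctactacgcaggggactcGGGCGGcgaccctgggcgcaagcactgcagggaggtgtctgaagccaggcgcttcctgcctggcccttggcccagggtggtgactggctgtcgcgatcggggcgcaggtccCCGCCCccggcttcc
Btc, chr5:91402995-91403244, minus strand: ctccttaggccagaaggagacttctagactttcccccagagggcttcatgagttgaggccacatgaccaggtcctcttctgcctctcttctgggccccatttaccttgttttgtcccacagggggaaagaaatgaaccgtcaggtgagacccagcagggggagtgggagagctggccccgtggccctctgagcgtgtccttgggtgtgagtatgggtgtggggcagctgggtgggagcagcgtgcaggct
Errfi1, chr4:150854820-150855069, plus strand: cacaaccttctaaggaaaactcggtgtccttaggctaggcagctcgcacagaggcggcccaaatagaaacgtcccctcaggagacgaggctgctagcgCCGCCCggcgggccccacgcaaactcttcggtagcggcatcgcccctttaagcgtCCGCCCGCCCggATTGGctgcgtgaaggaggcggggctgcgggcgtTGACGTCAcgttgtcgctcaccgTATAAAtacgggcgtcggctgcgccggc
The Tgfa window held 2 GC boxes, 126 and 15 bases before the start, and a GC content of 69.2%, above that of 89.6% of all 32851 promoters. The Errfi1 window held a TATA box 28 bases before the start, a cAMP response element 51 bases before it, a CCAAT box 85 bases before it and 3 GC boxes, of which the pair nearest the start overlap. The Btc window, with a GC content of 59.6%, held none of these letters. None of the 3 windows held an AP-1 site (TGANTCA), an E-box (CACGTG) or an HNF4 site (TGNACTTTG). Over all promoters of this length, 32.7% held the GC box, 12.4% the TATA box, 33.8% the CCAAT box, 1.55% the cAMP response element, 6.75% the AP-1 site, 6.02% the E-box and 1.19% the HNF4 site. A match is a description of letters and not a bound site.

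Between genes, levels were compared as deposited FPKM, which corrects fragment numbers for the length of the transcript. Over the 16 libraries the mean FPKM was 300.1 for Errfi1, 96.8 for Hgfac, 49.1 for Egfr, 5.68 for Met, 5.16 for Tgfa, 1.16 for Btc, 0.967 for Hgf, 0.488 for Hbegf, 0.287 for Areg and 0.228 for Egf. The feedback inhibitor Errfi1 was thus the most abundant member, and the receptor Egfr was more abundant than Met and than any ligand. Only 3 steps of this order had no overlap over the libraries, Errfi1 over Hgfac, Egfr over Met and Tgfa over Btc. Met and Tgfa, neighbors in the order, kept it in 12 of 16 libraries, Btc and Hgf in 11 and Areg and Egf in 11. Among the 5 EGFR ligands Tgfa made up most of the sum, 71.6% ± 7.05 in control before, 74.4% ± 7.93 in HIRA KO before, 71.5% ± 4.09 in control after and 66.2% ± 2.68 in HIRA KO after regeneration (SD, n = 4). The FPKM that 1 CPM corresponds to varied 1.22-fold over the libraries for Tgfa but 1.78-fold for Egfr and 6.12-fold for Areg, so the 2 deposited scales are not the same measure for the latter genes. Differences between groups were therefore tested on counts.

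**Figure D1:**
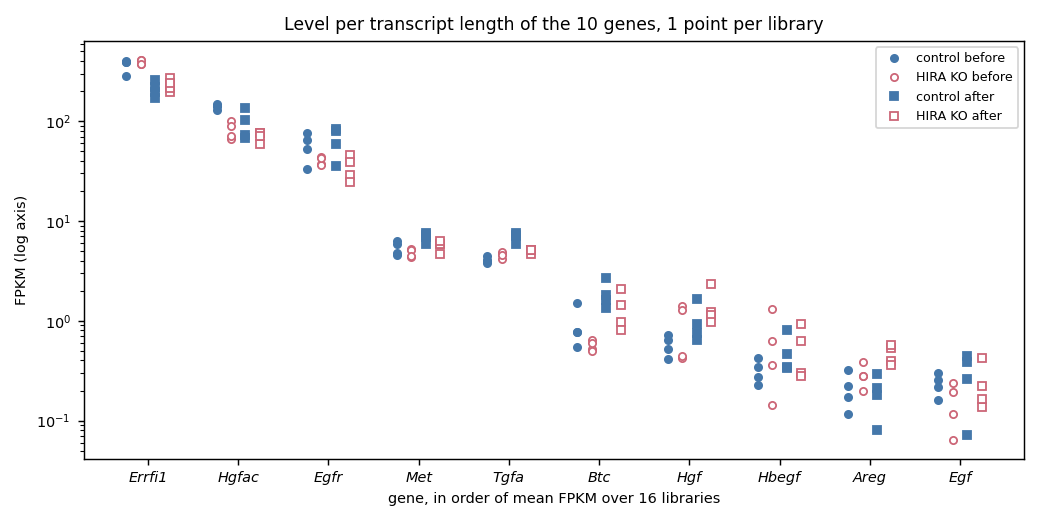
FPKM of the 10 genes (log axis), 1 point per library, with genes in order of their mean over 16 libraries; blue is control, red HIRA KO, circles before and squares after regeneration. Errfi1 lies highest, at 169.9 to 413 FPKM, and Egf lowest, at 0.0645 to 0.439.

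Of the members, 2 of 10 passed the test between after and before regeneration in control (edgeR quasi-likelihood test, adjusted p under 0.05 over all genes), where 10.2% of all genes tested did (6.04% higher and 4.17% lower). Tgfa rose and Errfi1 fell. In HIRA KO it was also 2 of 10, beside 12% of all genes (6.48% higher and 5.53% lower). There Btc rose and Errfi1 fell. Between HIRA KO and control, none of the 10 passed before regeneration, beside 0.0391% of all genes (0.0348% higher and 0.00434% lower). Tgfa alone passed after it, where it was lower in HIRA KO, beside 0.491% of all genes (0.2% higher and 0.291% lower). For the difference between the effects of HIRA KO after and before regeneration no member passed, and no gene of the 23018 did (0%).

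**Figure D2:**
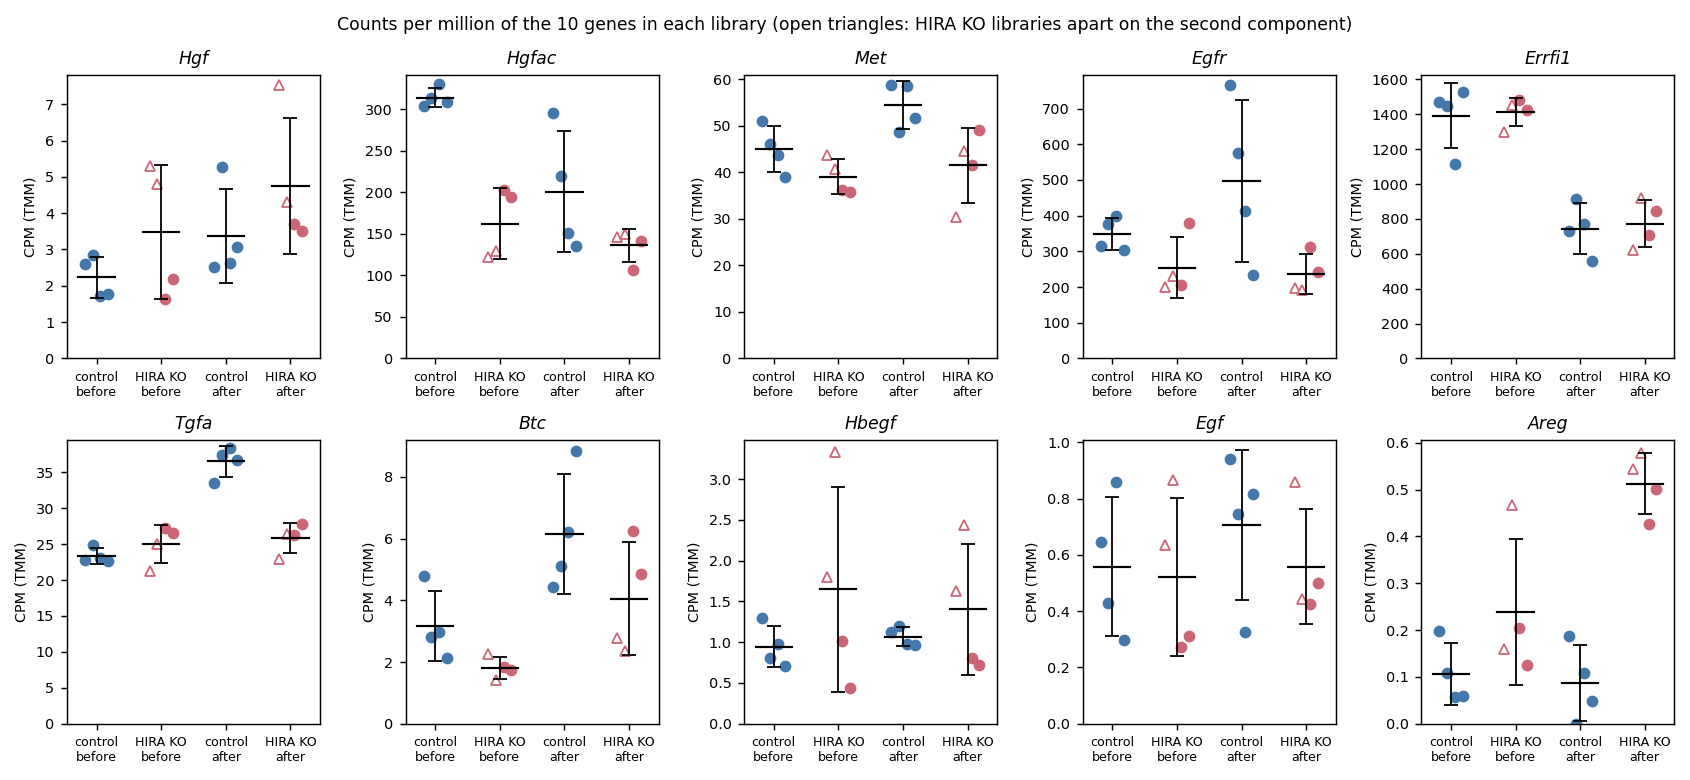
CPM of each of the 10 genes in every library, by group, with the group mean; each gene has its own axis. The 4 Tgfa values of control after regeneration, 33.4 to 38.4 CPM, lie above the other 12, and the Errfi1 values after regeneration, 556 to 920 CPM, lie below all values before it, 1116 to 1529.

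**Figure D3:**
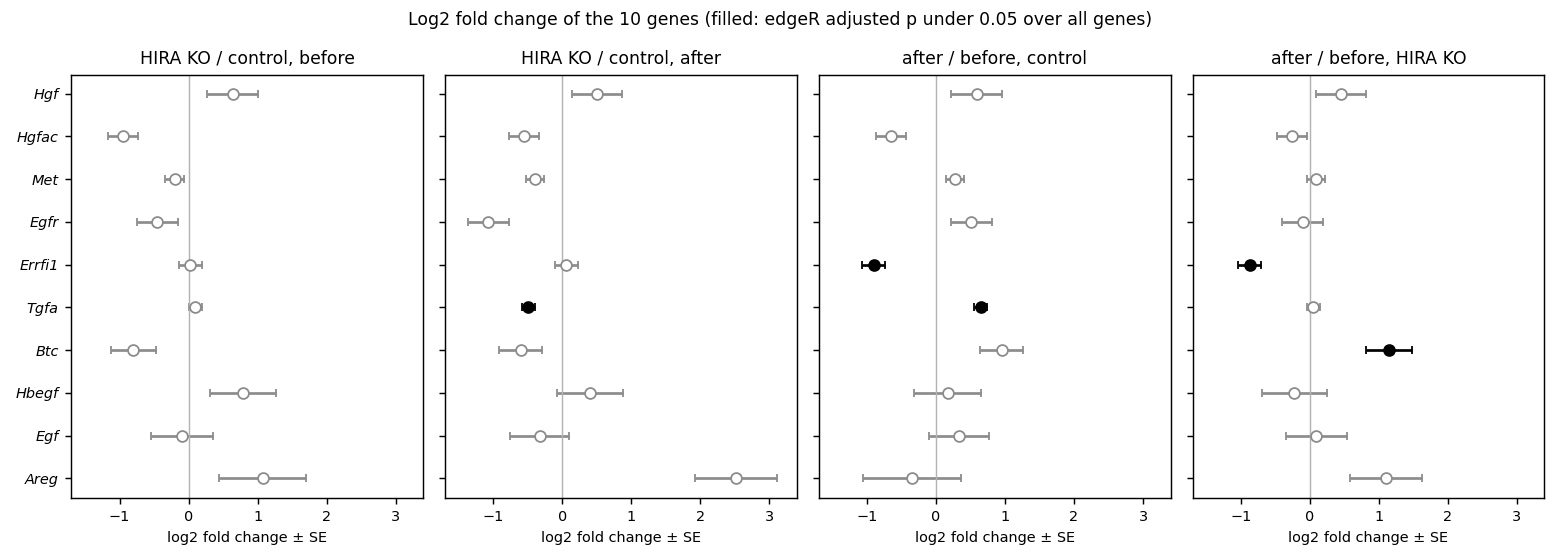
Log2 fold change of each gene with its standard error in the 4 comparisons, each named above its panel; filled points passed the test. Errfi1 lies at -0.90 and -0.87 in the panels of after against before, and Tgfa at 0.64 in control and 0.05 in HIRA KO.

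Tgfa (ENSMUSG00000029999.14, chr6:86195223-86275719) encodes transforming growth factor alpha, an EGFR ligand that hepatocytes make themselves. In control its CPM was 22.8, 24.9, 23.1 and 22.6 before and 33.4, 37.4, 38.4 and 36.8 after regeneration. In HIRA KO it was 21.2, 25.01, 27.2 and 26.5 before and 22.9, 26.5, 26.3 and 27.8 after. The control libraries after regeneration stood above all others, while the other groups overlapped. In control the log2 fold change was 0.64 (SE 0.10, adjusted p = 0.000625), from 23.4 ± 1.06 to 36.5 ± 2.14 CPM. In HIRA KO it was 0.05 (SE 0.10, adjusted p = 0.780), from 24.98 ± 2.67 to 25.9 ± 2.08 CPM. After regeneration Tgfa was at 70.9% of its control level in HIRA KO, a log2 fold change of -0.50 (SE 0.10, adjusted p = 0.0392), while before it the log2 fold change was 0.10 (SE 0.10, adjusted p = 0.713). The gap between these effects was -0.59 on the log2 scale (SE 0.14) and had adjusted p = 0.310 in the edgeR quasi-likelihood test and adjusted p = 0.0174 in DESeq2.

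The rise of Tgfa in control passed in all 10 other settings tried and without each of the 8 libraries concerned in turn. The call after regeneration did not hold as well. It passed in 4 of 9 other settings, with adjusted p from 0.000236 to 0.171 and log2 fold changes of -0.50 to -0.43, and without the 2 HIRA KO libraries apart at each time point it was -0.43 (SE 0.11, adjusted p = 0.171). Left out in turn, each control library after regeneration and HIRA KO libraries 1 and 2 after regeneration ended the call (adjusted p of 0.0796 to 0.123), and HIRA KO libraries 3 and 4 did not (0.0410 and 0.0227). Of the libraries before regeneration, which enter only the shared spread, the scaling and the adjustment over all genes, 6 of 8 ended it as well (0.0511 to 0.0618). The 2 HIRA KO libraries after regeneration that were not apart, at 26.3 and 27.8 CPM, averaged 74.2% of control, and the 2 that were, at 22.9 and 26.5 CPM, averaged 67.7%.

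Errfi1 (ENSMUSG00000028967.10, chr4:150853919-150868892) is the inhibitor of the set. Before regeneration its CPM was 1471, 1446, 1116 and 1529 in control, against 1301, 1451, 1484 and 1427 in HIRA KO. After regeneration control held 733, 911, 772 and 556 and HIRA KO 621, 920, 708 and 843. No library after regeneration reached the lowest before it, in either genotype. In control the level fell to 53.4% of that before, a log2 fold change of -0.90 (SE 0.17, adjusted p = 0.00252), and in HIRA KO to 54.6%, a log2 fold change of -0.87 (SE 0.17, adjusted p = 0.00290). Both calls held in all 10 other settings and without each of the 8 libraries concerned in turn. Between genotypes the log2 fold change was 0.03 (SE 0.16) before and 0.06 (SE 0.16) after regeneration, and the difference between the effects was 0.03 (SE 0.23, adjusted p = 0.996). In the 2 HIRA KO libraries not apart, the mean was 104.7% of control before and 104.3% after regeneration. The antisense gene 1700045H11Rik overlaps Errfi1, but was at 0.434 CPM.

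Btc (ENSMUSG00000082361.6, chr5:91357261-91402994) encodes betacellulin, a ligand of EGFR and ERBB4. Its CPM in HIRA KO was 2.28, 1.40, 1.84 and 1.75 before and 2.76, 2.35, 6.26 and 4.84 after regeneration. In control it was 4.77, 2.80, 2.98 and 2.13 before and 4.45, 5.10, 6.21 and 8.83 after. In HIRA KO the groups did not overlap, although the lowest value after lay close to the highest before, and in control the highest value before was above the lowest after regeneration. The log2 fold change was 1.15 (SE 0.33, adjusted p = 0.0294) in HIRA KO and 0.95 (SE 0.31, adjusted p = 0.0616) in control, and the difference between them was 0.19 (SE 0.45, adjusted p = 0.964). The call in HIRA KO ended when HIRA KO library 2, 3 or 4 before or 3 or 4 after regeneration was left out (adjusted p of 0.0619 to 0.116). Without the 4 libraries apart the log2 fold change was 1.63 (SE 0.38, adjusted p = 0.0123) in HIRA KO, and that of control, whose libraries all stayed in, passed too (adjusted p = 0.0133). HIRA KO was at 57.3% of control before and 65.9% after regeneration, with adjusted p of 0.319 and 0.350.

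The remaining EGFR ligands were near the limit of detection. Areg (ENSMUSG00000029378.5, chr5:91139599-91148432), the amphiregulin gene, had 4, 2, 1 and 1 counts in control before regeneration, with 3, 7, 3 and 2 in HIRA KO. After it control held 3, 0, 2 and 1 counts and HIRA KO 12, 13, 9 and 9. HIRA KO and control did not overlap after regeneration, and the HIRA KO libraries after regeneration had more raw counts than all others. Scaled to CPM they did not stand apart, since HIRA KO library 2 before regeneration, at 0.467, lay above library 3 after it, at 0.427. Summed over the libraries, 43 counts in HIRA KO against 6 in control gave a ratio of CPM of 6.22 (95% exact interval 2.64 to 17.9, for counting error only). The edgeR test gave adjusted p = 0.0623, between 0.0632 and 0.220 in the 8 other settings with a value, and passed when HIRA KO library 3 or 4 after regeneration was left out (adjusted p of 0.0498 and 0.0489). The library with 0 counts, which allows up to 0.172 CPM, has a deposited FPKM of 0.0804. Hbegf (ENSMUSG00000024486.6, chromosome 18), which encodes heparin-binding EGF-like growth factor, had 1.80, 3.33, 1.02 and 0.438 CPM in HIRA KO before and 1.63, 2.44, 0.806 and 0.723 after regeneration, against 0.710 to 1.29 and 0.960 to 1.204 in control. The libraries apart were the high ones at both time points, and the other 2 averaged 77.1% of control before and 71.6% after regeneration. Without the libraries apart the log2 fold change against control went from 0.79 to -0.39 before and from 0.40 to -0.47 after regeneration. Egf (ENSMUSG00000028017.7, chr3:129677565-129755316), made mainly by kidney and salivary gland, had 4 to 19 counts per library, and its log2 fold changes lay between -0.33 (SE 0.43) and 0.33 (SE 0.44) in the 4 comparisons. No difference in Egf or Hbegf passed the test in any comparison.

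Egfr (ENSMUSG00000020122.16, chr11:16752203-16918158), the receptor of these ligands, was at 316, 377, 398 and 303 CPM in control livers before regeneration, and HIRA KO held 199.6, 231, 206 and 381 CPM. After it, control held 766, 576, 414 and 233 CPM and HIRA KO 197, 192, 313 and 243 CPM. Before regeneration 3 of the 4 HIRA KO libraries lay below the control range and the fourth, at 381 CPM, within it. After regeneration the control libraries spread widely and the groups overlapped too. The log2 fold change of HIRA KO against control was -0.45 (SE 0.30, adjusted p = 0.540) before and -1.07 (SE 0.30, adjusted p = 0.103) after regeneration in edgeR, and DESeq2 called the latter (log2 fold change -1.05, adjusted p = 0.0144). Without the libraries apart it was -0.84 (SE 0.43, adjusted p = 0.553). In HIRA KO the log2 fold change of after against before was -0.11 (SE 0.30), and in control 0.51 (SE 0.30). The antisense gene Egfros overlaps Egfr and was at 0.434 CPM.

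In the HGF arm no member passed the edgeR test in any comparison. Hgf (ENSMUSG00000028864.7, chr5:16553495-16620152), the ligand, was at 2.59, 2.85, 1.72 and 1.78 CPM in control livers before regeneration, while HIRA KO held 5.29, 4.80, 1.63 and 2.19. After it control held 2.51, 5.27, 2.62 and 3.07 CPM and HIRA KO 7.52, 4.31, 3.70 and 3.51. The high values before regeneration were those of the libraries apart, and the other HIRA KO libraries lay within or just under the control range. The log2 fold change against control before regeneration was 0.64 (SE 0.37, adjusted p = 0.481) with all libraries and -0.22 (SE 0.34, adjusted p = 0.946) without those apart. After regeneration it was 0.50 (SE 0.36, adjusted p = 0.540) with all libraries and 0.10 (SE 0.30, adjusted p = 0.952) without those apart. The 8 stellate cell markers, from cells that make Hgf, summed to 345 to 346 CPM in the libraries apart before regeneration, 228 to 239.8 in the other HIRA KO libraries and 193 to 246 in control, with no defining marker at 0. The 5 markers of stellate cell activation summed to 155.7 to 292 CPM in the libraries apart, 35.0 to 37.1 in the other HIRA KO libraries and 32.1 to 50.8 in control before regeneration. The 6 cholangiocyte markers were higher there too, at 97.4 to 143 CPM in sum against 57.7 to 73.7 in the other HIRA KO libraries and 47.8 to 72.4 in control, where Cftr was near 0. After regeneration the stellate cell markers summed to 258 to 297 CPM in the libraries apart, 163 to 197 in the other HIRA KO libraries and 124 to 229 in control. The 5 activation markers then summed to 136.9 to 191 CPM in the libraries apart. In the other HIRA KO libraries they were at 91.8 to 175 and in control at 49.5 to 195. In the same order, the 6 cholangiocyte markers were at 106 to 131, 81.1 to 111 and 71.4 to 114 CPM. Both of these sums overlapped control in the libraries apart. The part of these cell types in the levels of Hgf and Hbegf was not tested, and in bulk liver more cells of a type and more RNA per cell cannot be told apart.

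Hgfac (ENSMUSG00000029102.9, chr5:35041509-35048461), the activating protease secreted by hepatocytes, was the member with the clearest separation before regeneration. Control held 304, 313, 331 and 309 CPM and HIRA KO 122, 129, 203 and 195. HIRA KO libraries did not reach the control range, which was true for this 1 of the 10 members and for 8.07% of all genes. HIRA KO was at 51.7% of control, a log2 fold change of -0.95 (SE 0.22), with adjusted p = 0.117 in edgeR and 0.00696 in DESeq2, and with p = 0.0286 in an exact two-sided permutation test (n = 4 and 4), the smallest it can give. The 2 libraries not apart were at 63.3% of control and those apart at 40.1%. Without the libraries apart the log2 fold change before regeneration was -0.66 (SE 0.26, adjusted p = 0.737 in edgeR). After regeneration Hgfac was at 295, 220, 151 and 136 CPM in control livers and HIRA KO held 146, 149.7, 107 and 141, so the groups overlapped (log2 fold change -0.56, SE 0.22, adjusted p = 0.215). In control all 4 values after regeneration lay under those before it, but the change did not pass (log2 fold change -0.65, SE 0.22, adjusted p = 0.0686 in edgeR and 0.0297 in DESeq2), and without control library 1 after regeneration it did (adjusted p = 0.00917). In HIRA KO the log2 fold change of after against before was -0.25 (SE 0.22, adjusted p = 0.494) with all libraries. Without the libraries apart it was -0.68 (SE 0.29, adjusted p = 0.175).

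Met (ENSMUSG00000009376.15, chr6:17463800-17573980), the HGF receptor, varied least of the HGF arm. Its CPM before regeneration was 50.9, 46.0, 43.7 and 39.0 in control livers against 43.6, 40.7, 36.2 and 35.7 in those of HIRA KO mice. After it control held 58.8, 48.5, 58.5 and 51.7 and HIRA KO 30.4, 44.6, 41.6 and 49.1. The groups overlapped by a single library after regeneration, where HIRA KO was at 76.2% of control (log2 fold change -0.39, SE 0.13, adjusted p = 0.158). The log2 fold change of after against before was 0.28 (SE 0.13, adjusted p = 0.219) in control and 0.08 (SE 0.13, adjusted p = 0.739) in HIRA KO.

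Counted over the members, the groups of HIRA KO and control did not overlap for 1 of 10 before and for 2 of 10 after regeneration (Tgfa lower, Areg higher), beside 8.07% and 8.1% of all genes. After and before did not overlap for 3 of 10 in control (Tgfa, Errfi1 and Hgfac) and 2 of 10 in HIRA KO (Btc and Errfi1), beside 19% and 16.1% of all genes. At an unadjusted p under 0.05 the counts were 2 and 5 of 10 for HIRA KO against control, beside 13.2% and 15.8% of all genes, and 4 and 3 of 10 for regeneration, beside 23.5% and 27.4%. For HIRA KO against control before regeneration, where edgeR called none, DESeq2 called Hgfac (1.66% of all genes) and limma on log2(FPKM + 0.1) none (0.109%). After regeneration DESeq2 called 2 of 10, beside 3.95% of all genes, and for regeneration in control 4 of 10, beside 14.2%. For the difference of effects, where edgeR called none as well, 1 of 10 had an unadjusted p under 0.05 (6.81% of all genes), DESeq2 called Tgfa (0.291% of all genes) and limma none (0.00434%). The median log2 fold change of the members was -0.03 before and -0.36 after regeneration for HIRA KO against control, 0.30 for regeneration in control and 0.07 in HIRA KO, while that of all genes was 0.01, 0.02, 0.00 and 0.02. The comparisons share groups, so these counts are not independent of each other.

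Of 59 other genes of the axis, grouped by role, 58 could be tested (Epgn had too few counts). Between after and before regeneration 14 of 58 passed in control, 10 higher and 4 lower, and 10 of 58 in HIRA KO, 4 higher and 6 lower, beside the 10.2% and 12% of all genes. The median log2 fold changes of the list were -0.01 and -0.08. All 4 genes for the shedding of EGFR ligands passed as higher in control. In HIRA KO 1 of the 4 passed, and all 4 log2 fold changes were positive there too. Rhbdf2, an inactive rhomboid that brings the sheddase ADAM17 to the cell surface, rose from 17.0 ± 2.17 to 34.4 ± 2.05 CPM in control (log2 fold change 1.02, SE 0.13, adjusted p = 0.000219). In HIRA KO it was at 20.3 ± 3.36 CPM before and 25.1 ± 3.30 after regeneration (log2 fold change 0.30, SE 0.13, adjusted p = 0.139). Like Tgfa, Rhbdf2 had 4 control values after regeneration, 36.5, 35.9, 32.9 and 32.5 CPM, that lay above its HIRA KO values, 26.0, 27.6, 26.4 and 20.2 CPM, although the difference did not pass the test (adjusted p = 0.0993). The genotypes did not overlap after regeneration for 8.1% of all genes. Adam17 rose in control (log2 fold change 0.52, SE 0.10, adjusted p = 0.00420), and was at 0.21 (SE 0.10, adjusted p = 0.202) in HIRA KO. Adam10, the sheddase of Btc and Egf precursors, rose in control (0.61, SE 0.09, adjusted p = 0.000832) and in HIRA KO (0.38, SE 0.09, adjusted p = 0.0145). Rhbdf1, named here after its values were seen, rose in control (0.88, SE 0.20, adjusted p = 0.00888) and was at 0.26 (SE 0.20, adjusted p = 0.429) in HIRA KO. The differences between these changes in HIRA KO and control lay between -0.71 and -0.23 on the log2 scale with adjusted p of 0.348 to 0.771, so none of the 4 was shown to differ between genotypes.

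**Figure D4:**
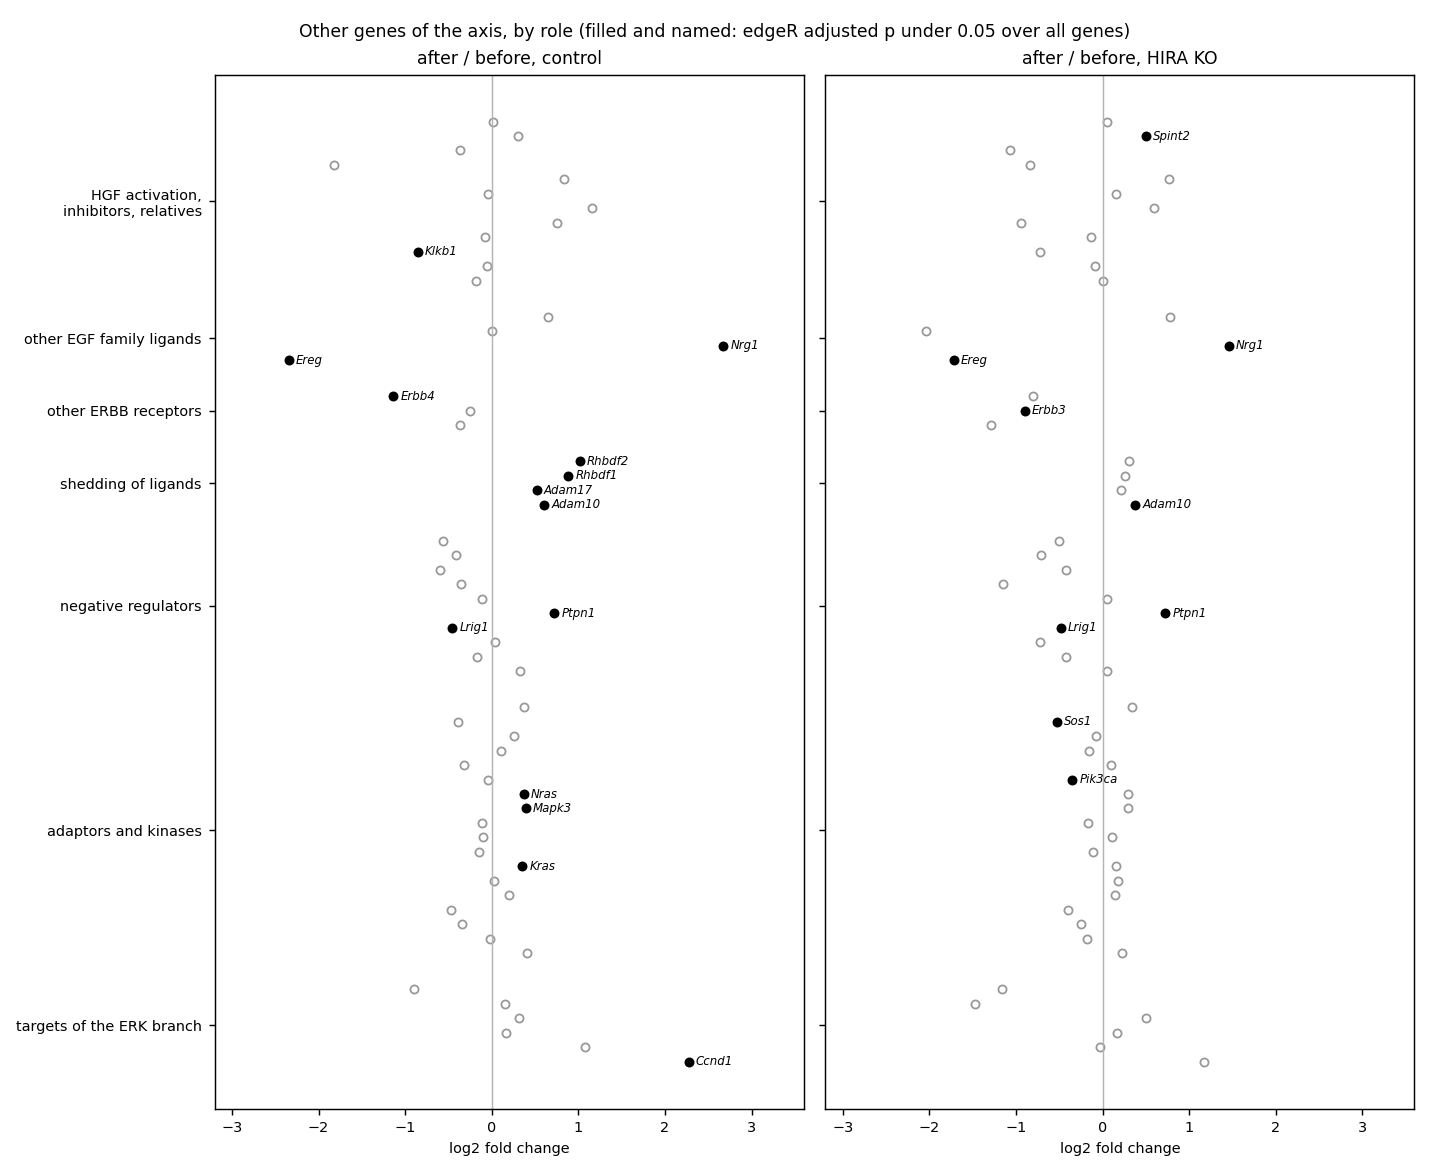
Log2 fold change of after against before regeneration for the other genes of the axis tested, except 1 that is not shown, 1 point per gene, in rows by role, in control (left) and HIRA KO (right); filled points with a name passed the test. The 4 genes for shedding of ligands are all filled in control, at 0.52 to 1.02, and 1 is in HIRA KO.

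Among the other roles, Nrg1, a neuregulin ligand of ERBB3 and ERBB4, rose in control from 1.06 ± 0.446 to 6.76 ± 4.11 CPM (log2 fold change 2.67, SE 0.47, adjusted p = 0.00244). In HIRA KO it rose from 2.38 ± 0.712 to 6.53 ± 2.14 CPM (1.46, SE 0.44, adjusted p = 0.0410). Ereg, the epiregulin gene, fell in both genotypes but at a mean under 1 CPM, and is named, as is Erbb4, after its values were seen. Of the 3 other ERBB receptors, Erbb4 fell in control (-1.14, SE 0.31, adjusted p = 0.0237) and was at -0.81 (SE 0.28, adjusted p = 0.0725) in HIRA KO. Erbb3, a partner that lacks an active kinase, fell in HIRA KO from 134.6 ± 34.5 to 72.1 ± 16.1 CPM (-0.90, SE 0.20, adjusted p = 0.00922). In control Erbb3 was at -0.25 (SE 0.20, adjusted p = 0.523). Among 10 negative regulators, 2 passed in each genotype, beside 10.2% and 12% of all genes. The phosphatase gene Ptpn1 rose in control (0.72, SE 0.11, adjusted p = 0.000832) and in HIRA KO (0.72, SE 0.11, adjusted p = 0.000701), the reverse of Errfi1. Lrig1, named after its values were seen, fell as Errfi1 did, in control (-0.45, SE 0.13, adjusted p = 0.0354) and in HIRA KO (-0.49, SE 0.13, adjusted p = 0.0242). Among 12 genes of HGF activation, its inhibitors and relatives, Spint2, an inhibitor of the activating proteases, rose in HIRA KO (0.50, SE 0.12, adjusted p = 0.0137). In control Spint2 was at 0.31 (SE 0.12, adjusted p = 0.124), and its libraries before and after did not overlap either. The 1 of these 12 genes that passed in control was Klkb1, named after its values were seen. Klkb1 fell in control (-0.86, SE 0.23, adjusted p = 0.0258) and was at -0.72 (SE 0.23, adjusted p = 0.0542) in HIRA KO. Of 19 adaptors and kinases, 3 passed in control, all higher, and 3 in HIRA KO, all lower, beside 10.2% and 12% of all genes. None of the 19 passed for a difference between genotypes in these changes. Among those that fell in HIRA KO was the RAS exchange factor gene Sos1, at -0.53 (SE 0.14, adjusted p = 0.0216). In control Sos1 was at -0.39 (SE 0.14, adjusted p = 0.0859). The differences between genotypes in the changes of Erbb3, Erbb4, Spint2 and Sos1 had adjusted p of 0.693 to 0.933. Of 6 targets of the ERK branch, Ccnd1, the cyclin D1 gene, rose in control from 19.3 ± 3.76 to 93.3 ± 35.1 CPM (2.27, SE 0.43, adjusted p = 0.00529). In HIRA KO it was at 62.8, 56.6, 17.5 and 21.3 CPM before regeneration, high in the libraries apart, and at 59.3 to 134 after it.

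For HIRA KO against control none of the 58 passed before regeneration and 1 after it, beside 0.0391% and 0.491% of all genes. Before regeneration 12 had an unadjusted p under 0.05, beside 13.2% of all genes, and DESeq2 called 1, beside 1.66%, and limma none, beside 0.109%. The gene that passed the edgeR test after regeneration was Shc1, an adaptor that links EGFR and MET to RAS. After regeneration Shc1 was at 77.4, 90.6, 87.8 and 77.4 CPM in control livers, where HIRA KO held 45.4, 45.2, 68.4 and 56.3. The groups did not overlap, and HIRA KO was at 64.6% of control (log2 fold change -0.63, SE 0.13, adjusted p = 0.0414). Without the libraries apart the log2 fold change was -0.42 (SE 0.12, adjusted p = 0.218), and the 2 HIRA KO libraries then left, at 68.4 and 56.3 CPM, still lay below the control values. The call also ended when any control library or HIRA KO library 1 or 2 after regeneration was left out (adjusted p of 0.0776 to 0.145), or any library before it except HIRA KO library 1 (0.0522 to 0.0697). After regeneration 18 of the 58 had an unadjusted p under 0.05, beside 15.8% of all genes. HIRA KO and control did not overlap for 6 of the 58 before regeneration, beside 8.07% of all genes. After it they did not overlap for 14 of the 58, of which 6 were higher in HIRA KO, beside 8.1% of all genes. In DESeq2 6 of the 58 passed after regeneration, beside 3.95% of all genes. None of the 58 passed in the test of a different HIRA KO effect at the 2 time points, with 6 at an unadjusted p under 0.05, beside 6.81% of all genes, and none in DESeq2 or limma.

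The regeneration samples differed from those before in more than the axis. All 6 Kupffer cell and macrophage markers rose in both genotypes, from 122 to 344 CPM in sum before to 591 to 932 CPM after regeneration, and so did all 4 markers of proliferating cells. The 4 proliferation markers summed to 29.9 to 222 CPM in control and 33.1 to 205 in HIRA KO after regeneration. Before it they summed to 2.79 to 7.33 CPM in control, 11.4 to 16.2 in the HIRA KO libraries apart, which were also those with high Ccnd1, and 3.81 to 4.13 in the other HIRA KO libraries. Of 6 hepatocyte markers none passed in control and 1 fell in HIRA KO. Of the 6 endothelial markers 2 fell and of the 8 stellate cell markers 1 fell in each genotype. In control 1 of 6 cholangiocyte markers rose, and in HIRA KO 1 of 4 neutrophil markers did. None of the 4 T cell and 5 stellate cell activation markers passed. Beside these counts, 10.2% of all genes passed between after and before regeneration in control and 12% in HIRA KO. Between HIRA KO and control no marker of any of these lists passed at either time point. Their part in the changes of Tgfa, Btc and Errfi1 was not tested.

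Likeness of pattern was measured as the mean absolute difference of log2(CPM + 1), centered per gene, over the 16 libraries, among 13176 genes. The nearest genes to Tgfa were Tfdp1 (0.0995), Tfe3 (0.1005) and Nudt5 (0.104), where the median gene was at 0.307. To Errfi1 they were Acsl1 (0.137), Apbb3 (0.147) and Foxo3 (0.152), with a median of 0.475, and to Btc they were Sass6 (0.175), Snrnp25 (0.177) and Tmpo (0.185), with a median of 0.548.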

How the data were processed

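Poly-A libraries from 16 liver samples were made with a directional kit. According to the study's methods the authors trimmed the reads, aligned them with STAR to mm10 and counted them with HOMER, whereas the submitters' processing notes list STAR, HTSeq and Cufflinks without roles. The strand setting of the counting and the gene annotation release are not given in the sources used here, and reads of a gene and of an antisense gene that overlaps it could thus be mixed. The deposited count table held raw counts for 55421 genes, of which 54587 IDs were identical, version included, to GENCODE M21, the source of the coordinates. The deposited second table held FPKM, whose tool is not stated, and empty cells were read as 0.

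Columns were assigned to groups by the genotype and time in their names, and their running number was used only to name libraries. Replicates differed by more than sampling noise in all 24 pairs within groups (chi-square per degree of freedom of at least 12.4). Genes were kept at a summed count of 10 or more. The main test was the robust quasi-likelihood test of edgeR (version 4.0.16, R 4.3.3, TMM scaling) in a model of the 4 group means. P-values were adjusted after Benjamini and Hochberg over every gene kept, and genes were called at an adjusted p under 0.05. SE is the absolute log2 fold change over the square root of the F statistic. The adjusted p-values in the report are of this test where no other is named. The scripts were tested on simulated data. Alternatives were DESeq2 (version 1.42.0), other scaling, other filters, only the groups compared, a fit without the robust option, limma (version 3.58.1) on log2(FPKM + 0.1), each library left out, the libraries apart left out, and a block on the running number. For single genes, exact two-sided permutation tests were used, which cannot give less than 0.0286 with 4 against 4 libraries. Fits by deletion approach were not run, since no column gives it.

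The members, the gene lists and the markers were chosen with earlier results of these data known. Beside the members, genes of the axis list were named when called with a mean CPM of at least 1, up to 6 with the smallest adjusted p per comparison, except 1 gene that is not reported here. Promoters came from a RefSeq table on GRCm38.p6 that held 9 of the 10 members. For Errfi1, which has 2 starts in it, the start with the most GENCODE transcripts nearby was used.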

Additional observations from a re-analysis of the deposited data

Results flagged for a closer look

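Egf after regeneration in HIRA KO held a library that stood apart from the other 3 of its group, at 0.861 CPM (19 counts) against 0.427 to 0.501 CPM (9 to 10 counts). Its gap to the nearest library, as a share of the group's range, lay just above the 95% critical value of Dixon's test. It was the only one of 40 groups of member and condition examined to pass, where chance gives about 1 in 20, and it is 1 of the 4 libraries apart on the second principal component.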

How the results depend on the processing

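Counts of members called changed as follows. With DESeq2 they were 1 for HIRA KO against control before regeneration, 2 after it (Tgfa and Egfr), 4 for regeneration in control (Tgfa, Btc, Errfi1 and Hgfac) and 1 for the difference of effects (Tgfa), where DESeq2 called 1.66%, 3.95%, 14.2% and 0.291% of all genes. After regeneration the count fell from 1 to 0 with upper-quartile factors, without a filter, with only the groups compared, with limma on FPKM and without the libraries apart, and ran from 0 to 2 with each library left out. In HIRA KO regeneration it was 1 with only the groups compared (5.82% of all genes) and 1 to 2 with each library left out. With each of the 16 libraries left out in turn, 0.0217% to 2.19% of all genes passed for HIRA KO against control after regeneration. In HIRA KO regeneration 7.11% to 12.1% of all genes did. Of the 58 other genes of the axis, HIRA KO against control before regeneration gave 1 with DESeq2. After regeneration the count was 6 with DESeq2, 3 without a filter and with filterByExpr, 0 with upper-quartile factors, only the groups compared, limma and without the libraries apart, and 0 to 3 with each library left out. Of all genes, 0.491% passed there in the edgeR test as reported, 3.95% with DESeq2, 0.342% without a filter, 1.5% with filterByExpr, 0.226% with upper-quartile factors, 0% with only the groups compared, 0.295% with limma and 0.0825% without the libraries apart. For regeneration in control the count of the 58 was 23 without the libraries apart (16.4% of all genes) and 8 to 16 with each library left out. In HIRA KO it was 5 with only the groups compared (5.82%) and with limma (11.7%), and 6 to 13 with each library left out. With each of the 16 libraries left out in turn, 6.6% to 11.1% of all genes passed in control and 7.11% to 12.1% in HIRA KO. The causes were not tested.

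The running number of the columns was tried as a replicate block. Same-numbered libraries correlated at 0.0805 to 0.587 over the 8 pairs, and 7 of the 8 correlated best with their own number, which is a hint from the data. In control the same-numbered pairs reached only 0.377. In HIRA KO, pairs of different number also correlated at 0.335 to 0.516 when both libraries were apart or both were not. HIRA KO pairs of a library apart with one that was not correlated at -0.574 to -0.373. The surgical protocol took both tissues from the same mice, but no source says that a number is a mouse, and 1 pair correlated under 0.1, so the samples were not taken as paired. With the block, 2 members were called in control and 2 in HIRA KO regeneration, and of the 58 other genes 21 and 17, against 14 and 10 without it. Of all genes the block called 15.3% and 17.8%, against 10.2% and 12%.

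Without the libraries apart, log2 fold changes turned for Hgf (-0.22) and Hbegf (-0.39) before regeneration and for Hbegf after it (-0.47) against control, for Hbegf in HIRA KO regeneration (0.084), and in the difference of effects for Hgf (0.32), Hgfac (-0.034), Met (0.059), Egf (0.32) and Errfi1 (-0.0051). With limma the difference of effects turned for Hgf (0.083) and Egf (0.28). None of these values was called in either fit. With each library left out, signs turned for values that were not called. Against control these were Egf (-0.43 to 0.18) and Errfi1 (-0.064 to 0.066) before, and Errfi1 (-0.038 to 0.17) and Hbegf (-0.0086 to 0.62) after regeneration. For regeneration they were Areg in control (-0.95 to 0.14), and in HIRA KO Egf (-0.20 to 0.43), Egfr (-0.26 to 0.17), Hbegf (-0.63 to 0.36), Met (-0.0069 to 0.21) and Tgfa (-0.019 to 0.11). For the difference of effects they were Btc (-0.080 to 0.47), Egf (-0.53 to 0.097), Errfi1 (-0.064 to 0.14), Hbegf (-0.80 to 0.19) and Hgf (-0.45 to 0.16). Areg, Egf and Hbegf had 0 to 55 counts per library.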
